A study of Mus musculus with 21 samples.

Results

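Gm2619, Gm29284, Anxa2r1 and 1110038B12Rik were examined as 4 of the 56953 annotated genes in the count files. They were chosen by their read counts, which were higher in libraries labelled TET2-KO than in libraries labelled WT among B-1a or B-1b cells, and they were found by gene identifier. Values in the B-1a and B-1b libraries are therefore descriptions without a test, and only the B-2 libraries, which the choice did not use, were tested for these genes. The study sorted B cells from the peritoneal cavity of C57BL/6 mice that carried or lacked TET2, and sequenced the RNA of each sort in bulk. There were 4 WT and 4 TET2-KO libraries labelled B-1a, 4 WT and 3 TET2-KO libraries labelled B-1b, and 2 WT and 4 TET2-KO libraries labelled B-2, which makes 21. The TET2-KO mice descend from a conditional allele that allows the exons of the catalytic region to be removed. The loss was not restricted to B cells, so the other cells of the peritoneal cavity lacked TET2 too. The replicate numbers name separate samples, but nothing in the labels ties them to mice, litters or sorting days. Spread between libraries may therefore include technical spread. Libraries with the same genotype and number in different subsets may come from the same mouse. The B-2 libraries may thus not be independent of the B-1 libraries used for the choice.

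TET2 oxidizes methylated cytosine in DNA, a step on the way to its removal. B-1 cells are innate-like B cells that are abundant in body cavities and secrete natural IgM; B-1a cells carry CD5 and B-1b cells do not, whereas B-2 cells are the conventional follicular type. The 4 genes have different roles. Gm2619, a long non-coding RNA gene, and Gm29284, a pseudogene, lie in the Sp100 and Sp140 cluster of chromosome 1, whose protein-coding members encode interferon-inducible proteins of nuclear bodies that bind chromatin. Anxa2r1 codes for a putative receptor of annexin A2, a calcium-dependent membrane-binding protein. 1110038B12Rik is a non-coding host gene, a type of transcript whose introns or exons carry small nucleolar RNAs (snoRNAs), the guides of ribosomal RNA modification.

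In the annotation used for counting (GENCODE vM32 on the GRCm39 mouse assembly), Gm2619 (ENSMUSG00000091199.11) lies on the minus strand of chromosome 1 at chr1:85286380-85305006, with 4 exons of 392 bases in all. Gm29284 (ENSMUSG00000099693.2), an unprocessed pseudogene of 3 exons and 255 bases, lies on the same strand at chr1:84968359-84970753, which is 315.6 kb away. Anxa2r1 (ENSMUSG00000095609.4) occupies 4572 exonic bases in 6 blocks on the minus strand at chr13:120496141-120513730, and 1110038B12Rik (ENSMUSG00000092203.9) 2597 exonic bases on the minus strand at chr17:35167235-35171498.

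The exons of the chromosome 1 pair are printed here because the amount of sequence they share with other genes decides which reads can be credited to them. Exon 2 of Gm2619 is followed by the matching stretch of Gm53056, another gene of the cluster, both 5′ to 3′ on the minus strand of GRCm39. The capital letter marks the single position at which they differ (C131T, counted from 1 at the 5′ end, with the Gm2619 base first).
Gm2619 exon 2, chr1:85294846-85295005: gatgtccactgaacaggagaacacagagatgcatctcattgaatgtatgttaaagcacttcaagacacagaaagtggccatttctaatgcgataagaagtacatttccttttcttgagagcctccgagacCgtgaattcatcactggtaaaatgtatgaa
Gm53056 exon 1, part, chr1:85019518-85019677: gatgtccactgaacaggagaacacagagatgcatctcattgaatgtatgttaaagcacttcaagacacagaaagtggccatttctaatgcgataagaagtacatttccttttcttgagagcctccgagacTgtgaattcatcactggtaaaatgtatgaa
The same 160 bases matched Sp100 at 159 positions (G132A) and Gm55258 at 158 (C32A and C125T). Exon 3 of Gm2619, 90 bases long, was identical in Gm53056, Gm52950, Gm7609, Gm7592, Gm55258 and Sp100.

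The 3 exons of Gm29284 are given next, because each has a near copy in Sp110, a chromatin-binding nuclear body gene of the same cluster. They are printed 5′ to 3′ on the minus strand of GRCm39, without capitals.
Gm29284 exon 1, chr1:84970696-84970753: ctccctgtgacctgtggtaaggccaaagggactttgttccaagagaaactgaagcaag
Gm29284 exon 2, chr1:84970111-84970253: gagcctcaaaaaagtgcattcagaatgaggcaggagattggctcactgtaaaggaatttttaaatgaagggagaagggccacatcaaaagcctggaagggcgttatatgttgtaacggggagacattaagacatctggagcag
Gm29284 exon 3, chr1:84968359-84968412: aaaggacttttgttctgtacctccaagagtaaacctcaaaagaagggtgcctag
Exon 1 was identical in Sp110 and also lies inside an exon of Sp140l2 on the same strand, so a fragment within it overlaps both genes. Exon 2 matched Sp110 at 140 of 143 bases (A72G, C91A and T108C), and exon 3 at 53 of 54.

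1110038B12Rik was set apart from the others by its sequence. Every one of its 2499 stretches of 50 bases occurred once in the genome, against 1009 of 4278 in Anxa2r1 (23.6%), 23 of 108 in Gm29284 (21.3%) and 0 of 216 in Gm2619. With stretches of 100 bases, the single-copy share was 43.4% in Anxa2r1, 52.3% in Gm29284 and still 0 of 75 in Gm2619. No stretch of these lengths inside an exon of Gm2619 is its own, so reads shared with its copies could be split among them and its counts are uncertain. Anxa2r1 has its own copies: its exon 6 matched Anxa2r2 at 950 of 953 bases (A178G, C382T and A827T), and its first 4 exons matched the non-coding gene Gm36161 at 91.1% to 100% of aligned bases. Of the snoRNAs inside 1110038B12Rik, Snord52 is shown with its conserved motifs, box C (TGATGA) and box D (CTGA), in capitals; 84.6% of the 13 genes with a Snord symbol on chromosomes 1, 13 and 17 hold both motifs.
Snord52, chr17:35169928-35169993, minus strand: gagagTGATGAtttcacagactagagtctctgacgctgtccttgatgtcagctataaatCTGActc
Neither Snord52 nor Gm25744, the other small RNA gene inside 1110038B12Rik, had a count in any library. They lie wholly inside its exons on the same strand, and fragments that overlapped several genes were not counted. The counts therefore cannot show whether these small RNAs were present.

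The 21 libraries held 9667187 to 24152518 counts (median 17425219). No 2 of them were identical among 210 pairs. Levels are given in CPM, counts scaled to a library of 1000000 after TMM scaling over all libraries, a correction for differences in composition. Tet2 itself, counted over the whole gene, ranged from 8.45 to 27.2 CPM in WT and from 17.96 to 29.1 CPM in TET2-KO B-1a libraries. The groups overlapped there and in both other subsets, so counts over the whole gene do not check the genotype labels. The 12 macrophage markers summed to between 4310 and 30371 CPM per library, also in overlapping ranges between genotypes. In B-1a cells that sum was 11269 to 30371 CPM in WT and 4821 to 28874 CPM in TET2-KO libraries. The 6 erythroid markers had higher median sums in WT, but the ranges of the genotypes overlapped in each subset. In B-1a cells they summed to 11.3 to 1704 CPM (median 623) in WT and 1.61 to 30 CPM (median 2.95) in TET2-KO libraries. The ranges were 0.887 to 150 CPM against 0.340 to 19.0 CPM in B-1b and 3.45 to 67.0 CPM against 0.644 to 31.8 CPM in B-2 cells. WT 1 and WT 2 held the highest values in B-1a (1704 and 965 CPM) and B-1b cells (150 and 66.9 CPM). The part of either marker list in the results was not tested.

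Some WT libraries stood apart. In the 5 libraries labelled WT 1 or WT 2, the 591 vomeronasal receptor genes, which B cells are not known to use, summed to 4.82 to 13.4 CPM, against 41.4 to 687 CPM in the other 16. Subset markers also went against 3 of these 5 labels. The 3 B-2 markers (Fcer2a, Cr2 and Ighd) summed to 4290 CPM in B-1a WT 1 and to 3233 CPM in B-1b WT 2, as labelled, close to the 2399 to 4301 CPM of the TET2-KO B-2 libraries. In the B-2 library labelled WT 1 that sum was 392 CPM, and the 5 B-1 markers summed to 570 CPM, against 112 to 186 CPM in the TET2-KO B-2 libraries. The remaining B-1 libraries had B-2 marker sums of 230 to 664 CPM. Groups were kept as labelled, and values without WT 1 and WT 2 are given beside the results they touch. The labels describe purification of messenger RNA with poly-T beads, whereas the study's methods describe amplification of full-length cDNA. Which preparation each library had is not given in the sources used here, and its part in the WT and TET2-KO values was not tested.

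Gm2619 was the most raised of the 4 genes in CPM among B-1a cells. Its levels were 1.80, 6.92, 4.56 and 6.52 CPM in B-1a libraries WT 1 to WT 4. They were 54.6, 34.2, 27.3 and 45.3 CPM in TET2-KO 1 to 4. Every TET2-KO library lay above every WT library, and the lowest WT value was that of the library labelled WT 1. The mean was 4.95 ± 2.34 CPM (SD, n = 4) in WT and 40.4 ± 12 CPM (SD, n = 4) in TET2-KO, a fitted log2 fold change of 3.06 (SE 0.41). The log2 fold change was 2.77 without the B-1a library labelled WT 1, and 2.87 without both WT 1 and WT 2.

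In B-1b cells Gm2619 stood at 3.63, 2.35, 9.08 and 8.63 CPM in WT 1 to WT 4. It reached 38.6, 32.4 and 9.85 CPM in TET2-KO 1 to 3. The groups were separate, but narrowly, since TET2-KO 3 lay just above the 9.08 CPM of WT 3 while the other TET2-KO libraries lay over 3 times higher. Means were 5.92 ± 3.43 CPM (SD, n = 4) and 26.9 ± 15.1 CPM (SD, n = 3), a log2 fold change of 2.19 (SE 0.56), which became 1.92 without WT 2 and 1.6 without WT 1 and WT 2. In B-2 cells it was 22.7 CPM in WT 1 and 1.77 CPM in WT 4, against 8.12, 6.68, 6.98 and 6.98 CPM in TET2-KO 1 to 4. The 4 TET2-KO values were close together and fell between the WT pair.

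Gm29284 separated the genotypes in the same way at lower counts. In B-1a cells it was at 0.34, 1.64, 1.5 and 2.44 CPM in WT 1 to WT 4 and at 15.2, 11.6, 13.4 and 22.0 CPM in TET2-KO 1 to 4. The counts behind the WT values were 7 to 46 per library, and those behind the TET2-KO values 187 to 386, with no overlap. The means of 1.48 ± 0.86 and 15.5 ± 4.5 CPM (SD, n = 4 each) gave a log2 fold change of 3.43 (SE 0.50), or 3.08 without WT 1 and 2.98 without WT 1 and WT 2.

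In B-1b cells Gm29284 was at 1.17, 0.586, 2.5 and 3.76 CPM in WT 1 to WT 4 and at 7.68, 9.17 and 8.94 CPM in TET2-KO 1 to 3. Here TET2-KO 3, the low library for Gm2619, was level with the other 2, so the pair of genes parted in that library. It had a count for 17816 genes, the fewest of all libraries, against 23913 and 26360 in TET2-KO B-1b 1 and 2. Its vomeronasal sum was 265 CPM, against 67.3 and 133 CPM. Whether these traits bear on the parting was not tested. The log2 fold change was 2.11 (SE 0.57), 1.80 without WT 2 and 1.46 without WT 1 and WT 2. In B-2 cells the values were 5.05 CPM in WT 1 and 0.614 CPM in WT 4, and 1.67, 1.90, 0.913 and 1.61 CPM in TET2-KO 1 to 4, again between the WT values.

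Anxa2r1 was measured at 13.6, 8.72, 15.5 and 18.4 CPM in B-1a libraries WT 1 to WT 4 and at 51.1, 22.6, 26.0 and 28.9 CPM in TET2-KO 1 to 4. All TET2-KO values were above the WT values, with TET2-KO 1 far above the other 3. Means of 14 ± 4.1 and 32.2 ± 12.9 CPM (SD, n = 4 each) gave a log2 fold change of 1.23 (SE 0.31), 1.2 without WT 1 and 0.93 without WT 1 and WT 2. In B-1b cells the spread was smaller: 9.91, 7.20, 9.23 and 8.0 CPM in WT 1 to WT 4 and 27.3, 24.1 and 17.3 CPM in TET2-KO 1 to 3. The means of 8.58 ± 1.22 CPM (SD, n = 4) and 22.9 ± 5.1 CPM (SD, n = 3) gave a log2 fold change of 1.44 (SE 0.22), which was 1.36 without WT 2 and 1.41 without WT 1 and WT 2. The B-2 libraries overlapped, with 28.4 and 14.3 CPM in WT 1 and WT 4 and 28, 12.8, 12.5 and 6.72 CPM in TET2-KO 1 to 4.

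1110038B12Rik, whose reads map to one place, had the smallest difference. B-1a libraries WT 1 to WT 4 held 3.64, 3.54, 6.06 and 5.30 CPM, and TET2-KO 1 to 4 held 8.31, 9.76, 8.12 and 8.82 CPM. The groups did not overlap, and the WT libraries with the low values were WT 1 and WT 2. Means were 4.63 ± 1.24 and 8.75 ± 0.74 CPM (SD, n = 4 each), a log2 fold change of 0.95 (SE 0.26) that was 0.84 without WT 1 and 0.63 without WT 1 and WT 2. In B-1b cells the values of 5.96, 5.01, 6.68 and 3.23 CPM in WT 1 to WT 4 overlapped those of 6.49, 7.78 and 7.30 CPM in TET2-KO 1 to 3, with a log2 fold change of 0.50 (SE 0.32), or 0.47 without WT 2 and 0.55 without WT 1 and WT 2. In B-2 cells, levels were 4.58 and 6.07 CPM in WT 1 and WT 4 and 7.11, 5.49, 5.58 and 7.99 CPM in TET2-KO 1 to 4.

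**Figure D1:**
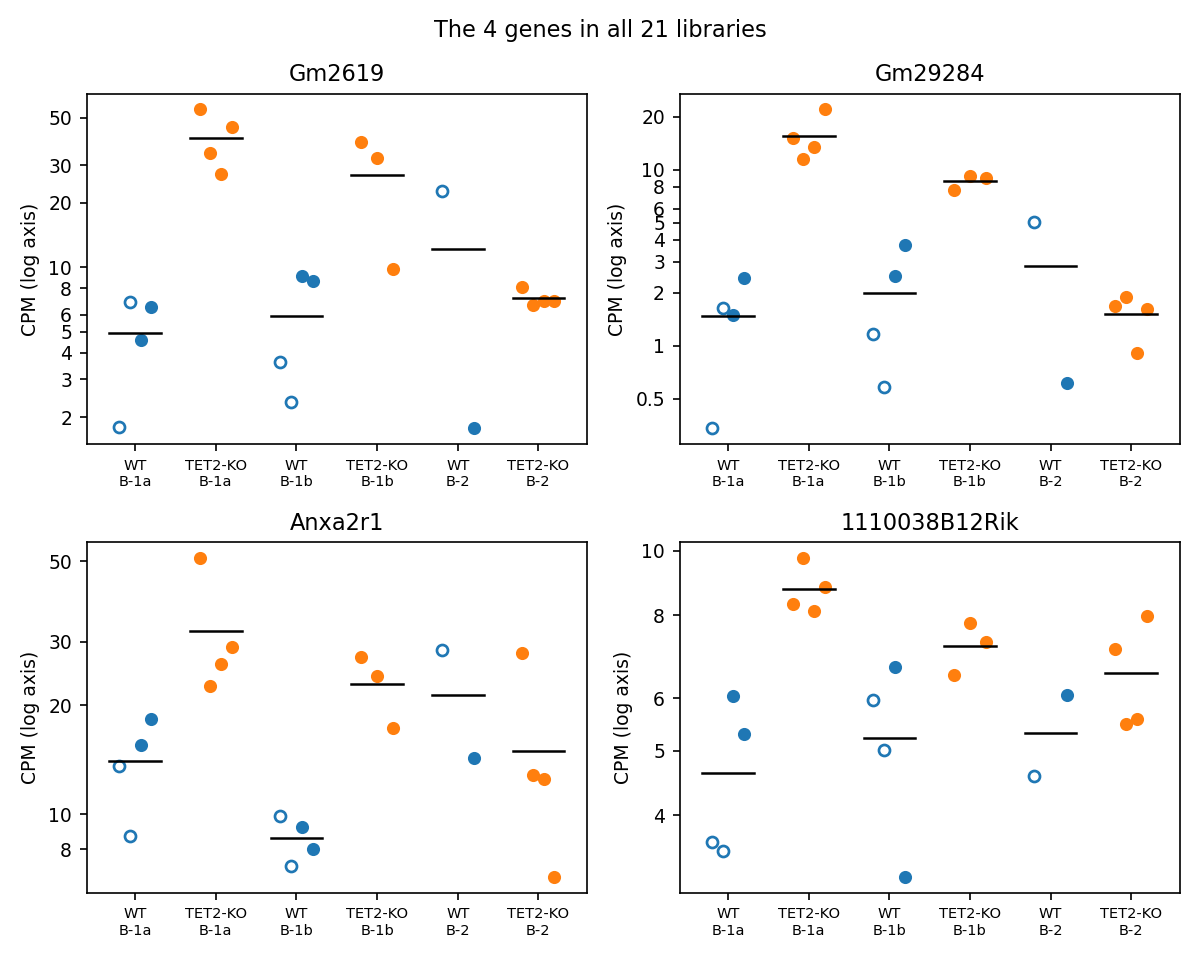
Each panel shows 1 gene, with CPM on a log axis against the 6 groups, 1 point per library and a bar at the group mean (blue, WT; orange, TET2-KO; open points, libraries labelled WT 1 or WT 2). In B-1a cells the TET2-KO points of all 4 genes lie above every WT point, and in B-2 cells the open WT point of Gm2619 at 22.7 CPM lies above all 4 TET2-KO points.

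All 4 genes thus had no overlap in B-1a cells, 3 of 4 in B-1b cells and 0 of 4 in B-2 cells. Over all genes tested, every TET2-KO library lay above every WT library for 2.18% in B-1a, 3.74% in B-1b and 12.7% in B-2 cells. Without WT 1 and WT 2 the counts were 4, 3 and 2 of 4, the B-2 pair being Gm2619 and Gm29284, beside 4.86%, 8.05% and 16.8% of all genes. Nothing can be read from the B-1 counts, since the genes were chosen there. A log2 fold change above 2 was reached by Gm2619 and Gm29284 in both B-1 subsets, a size shared by 0.826% of genes in B-1a and 1.43% in B-1b cells (17.5% in B-2). By edgeR, 0.00718% of all genes in B-1a cells were past the adjusted threshold and higher in TET2-KO, and 0.0431% were lower. In bulk RNA, fewer cells of a kind and less RNA per cell cannot be told apart. All 4 genes passed the filter on low counts in all 3 comparisons.

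The B-2 libraries gave no gene past an adjusted p of 0.05 in edgeR's quasi-likelihood test (0 of 19786, with 1754 at an unadjusted p under 0.05, and 162 past the threshold in DESeq2). The log2 fold changes were -0.73 (SE 0.72) for Gm2619, -0.86 (SE 0.87) for Gm29284, -0.48 (SE 0.51) for Anxa2r1 and 0.32 (SE 0.36) for 1110038B12Rik. Their adjusted p in edgeR, in that order, were 0.623, 0.629, 0.638 and 0.660. A two-sided exact permutation test of mean log2 CPM over 2 WT and 4 TET2-KO libraries gave 0.667, 0.667, 0.267 and 0.400, where the smallest p this design allows is 0.133. The direction rested on 1 library. Without the B-2 library labelled WT 1, whose subset markers went against its label, Gm2619 was higher in TET2-KO by a log2 fold change of 2.03 (SE 0.55), Gm29284 by 1.32 and Anxa2r1 by 0.09. In that fit WT 4 was the only WT library and was assumed to vary like the TET2-KO ones, and the adjusted p were all near 1.00. On mean log2 CPM, Gm2619 differed by 0.15 in favour of TET2-KO even with WT 1, opposite to the fit. A difference in B-2 cells was therefore not settled in either direction.

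The levels of the 2 chromosome 1 genes were low in the same WT libraries. The 3 lowest of the 21 values of both Gm2619 and Gm29284 belonged to B-1a WT 1, B-1b WT 2 and B-2 WT 4, which are the WT libraries with B-2 marker sums of 3233 CPM or more. The 4 TET2-KO libraries labelled B-2, with B-2 marker sums of 2399 to 4301 CPM, held 6.68 to 8.12 CPM of Gm2619, and the 7 TET2-KO libraries labelled B-1 held 9.85 to 54.6 CPM. This is given as an order of values only, since the libraries were not regrouped.

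Ordered by mean level, Gm2619 ran from TET2-KO B-1a and TET2-KO B-1b down to WT B-2, TET2-KO B-2, WT B-1b and WT B-1a, and the ranges of each group and the next overlapped. Gm29284 had the order TET2-KO B-1a, TET2-KO B-1b, WT B-2, WT B-1b, TET2-KO B-2 and WT B-1a. Its first 3 groups had separate ranges and the others overlapped. Anxa2r1 was highest in TET2-KO B-1a, then TET2-KO B-1b, WT B-2, TET2-KO B-2, WT B-1a and WT B-1b, each range overlapping the next. For 1110038B12Rik only the highest group, TET2-KO B-1a, was separate from the next, TET2-KO B-1b. Per length, Gm2619 was the most abundant in TET2-KO B-1a cells at 102.9 ± 30.7 CPM per kb of exon, followed by Gm29284 at 60.9 ± 17.8, Anxa2r1 at 7.04 ± 2.82 and 1110038B12Rik at 3.37 ± 0.28 CPM per kb (SD, n = 4).

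Gm2619 and Gm29284 varied together over the libraries. Pearson's r of their log2 CPM was 0.94 over 21 libraries, 0.96 over the 10 WT libraries, 0.89 over the 11 TET2-KO libraries and 0.91 over the 6 B-2 libraries, given as a description since the libraries share genotype, subset and depth. The ratio of their counts was not fixed, running from 1.10 in TET2-KO B-1b 3 to 7.65 in a TET2-KO B-2 library.

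**Figure D2:**
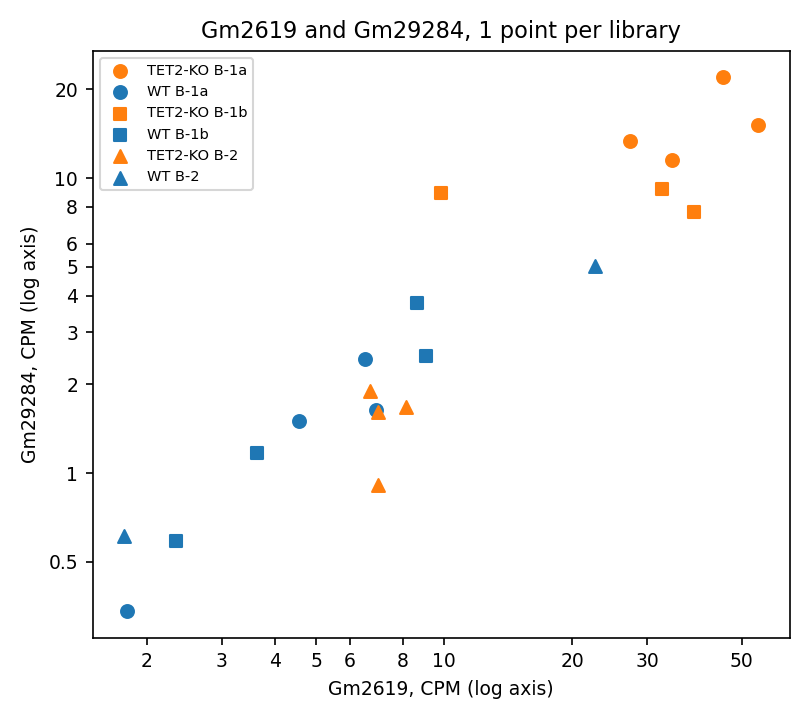
CPM of Gm2619 (horizontal, log axis) against CPM of Gm29284 (vertical, log axis), with 1 point per library, the marker giving the subset and the colour the genotype. The points rise together, and TET2-KO B-1b 3, at 9.85 and 8.94 CPM, lies to the left of the other 6 TET2-KO B-1 points.

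The genes most like each member were found by Pearson's r of log2 CPM over the same 21 libraries. For Gm2619 they were Gm29284 (0.94), Sp140l2 (0.93), Sp140l1 (0.87), Gm16028 (0.85) and Meis3 (0.84), a homeobox gene. For Gm29284 they were Sp140l2 (0.97), Gm2619 (0.94), Sp140l1 (0.91), Gm16028 (0.90) and Gm6264 (0.90). All but Meis3 lie in the same stretch of chromosome 1. Anxa2r1 was most like its near copy Gm36161 (0.85), then Itgam (0.78), the integrin chain CD11b that is also a B-1 marker, Rgl1 (0.77), Gbp6 (0.77), an interferon-induced GTPase, and Slc15a3 (0.76), a lysosomal transporter. 1110038B12Rik was most like Snhg6 (0.86), Fxyd1 (0.84), Snhg1 (0.80), Snhg17 (0.80) and Gm57021 (0.80), of which the 3 Snhg genes are snoRNA hosts. The lists depended on WT 1 and WT 2: over the other 16 libraries Gm29284 and Sp140l2 kept ranks 1 and 2 for Gm2619, and Snhg6 rank 1 for 1110038B12Rik. Sp140l1 moved to ranks 14 and 11 for Gm2619 and Gm29284, Gm16028 to 9 and 13, and Meis3 to 36. For Anxa2r1, Gm36161 moved to rank 3, Itgam to 8, Rgl1 to 4, Gbp6 to 13 and Slc15a3 to 28. For 1110038B12Rik, Gm57021 moved to rank 37.

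The neighbours were taken by position, 28 genes in all. None passed an adjusted p of 0.05 in any subset by edgeR. An unadjusted p under 0.05 was found for 7 of 20 tested in B-1a, 6 of 22 in B-1b and 4 of 19 in B-2 cells. Over all genes tested it was found for 1093 of 13923, 787 of 14368 and 1754 of 19786. Without WT 1 and WT 2 it was 6 of 23 neighbours in B-1a and 4 of 24 in B-1b cells, beside 485 of 15328 and 359 of 15448 genes. Among neighbours tested with all libraries, 16, 18 and 3 had a log2 fold change above 0. That direction was taken by 52.4%, 49.5% and 58.3% of all genes tested. Without WT 1 and WT 2 they were 19 of 23, 20 of 24 and 13 of 21, beside 53.2%, 50.9% and 62.7% of all genes, so the low B-2 count rested on the library labelled WT 1. Sp140l2, a protein-coding gene that overlaps Gm29284, is described first. It was at 7.09, 25.7, 25.0 and 30.8 CPM in B-1a WT 1 to WT 4 and at 110, 82.0, 76.3 and 95.8 CPM in TET2-KO 1 to 4. The groups were separate, with a log2 fold change of 2.07 (SE 0.38) and an adjusted p of 0.109 in edgeR. In B-1b cells its mean was 22.5 ± 10.3 CPM (SD, n = 4) in WT and 64.8 ± 1.5 CPM (SD, n = 3) in TET2-KO libraries, again without overlap, and the adjusted p in edgeR was 0.838. In B-2 cells its log2 fold change was -0.78 (SE 0.56), with an adjusted p of 0.549 in edgeR and 46.3 CPM in WT 1 against 7.30 CPM in WT 4. Without WT 1 and WT 2 its log2 fold changes were 1.71 (SE 0.21), 1.09 (SE 0.18) and, with the sign turned in B-2 cells, 1.08 (SE 0.39), none past the threshold.

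Gm16028, 53.2 kb from Gm2619 on the side of Gm29284 and inside the long span of Sp140l2, had few counts in WT. It lies on the strand opposite to Sp140l2, and reads of the pair cannot be told apart by strand in these counts. It had 0, 4, 1 and 1 counts in B-1a WT 1 to WT 4 and 35, 22, 43 and 74 counts in TET2-KO 1 to 4. In B-1b cells it had 0, 0, 4 and 9 counts in WT and 24, 27 and 32 counts in TET2-KO libraries. The adjusted p in edgeR was 0.0888 in B-1a and 0.838 in B-1b cells. The former was 0.223 without WT 1 and WT 2. The few WT counts leave the fold change uncertain, and the order of the libraries is the firmer measurement.

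Over the whole stretch from 250 kb before Gm29284 to 250 kb after Gm2619 there were 38 other annotated genes. Of the 22 tested in B-1a cells, 19 were above 0 on the log2 scale with a median of 0.47; of the 23 tested in B-1b cells all 23 were, with a median of 0.60; and of the 22 tested in B-2 cells 7 were, with a median of -0.20. The medians of all genes tested were 0.02, -0.005 and 0.17. Every TET2-KO library lay above all WT libraries for 4 genes in B-1a, 7 in B-1b and 0 in B-2 cells of those tested. This was 18.2%, 30.4% and 0% of them, beside 2.18%, 3.74% and 12.7% of all genes tested. The separate genes included Sp140l2, Sp140l1, Gm6264 and Gm16028 in both B-1 subsets. The B-2 values rested on the library labelled WT 1. Without WT 1 and WT 2, 21 of 24, 21 of 24 and 19 of 26 genes tested were above 0. The medians were 0.29, 0.28 and 0.59, against 0.02, 0.007 and 0.20 over all genes. Every TET2-KO library then lay above the WT libraries for 5, 7 and 6 of these genes. Among the 22, 23 and 22 genes tested with all libraries, the counts were 5, 7 and 5. The share over all genes tested with all libraries was 4.86%, 8.05% and 16.8%. In B-2 cells WT 4 was the only WT library left. Several of these genes share sequence with one another, so they are not independent. Sp110 and Sp140, at the far end, differed little, with log2 fold changes of 0.10 (SE 0.12) and 0.07 (SE 0.15) in B-1a cells.

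**Figure D3:**
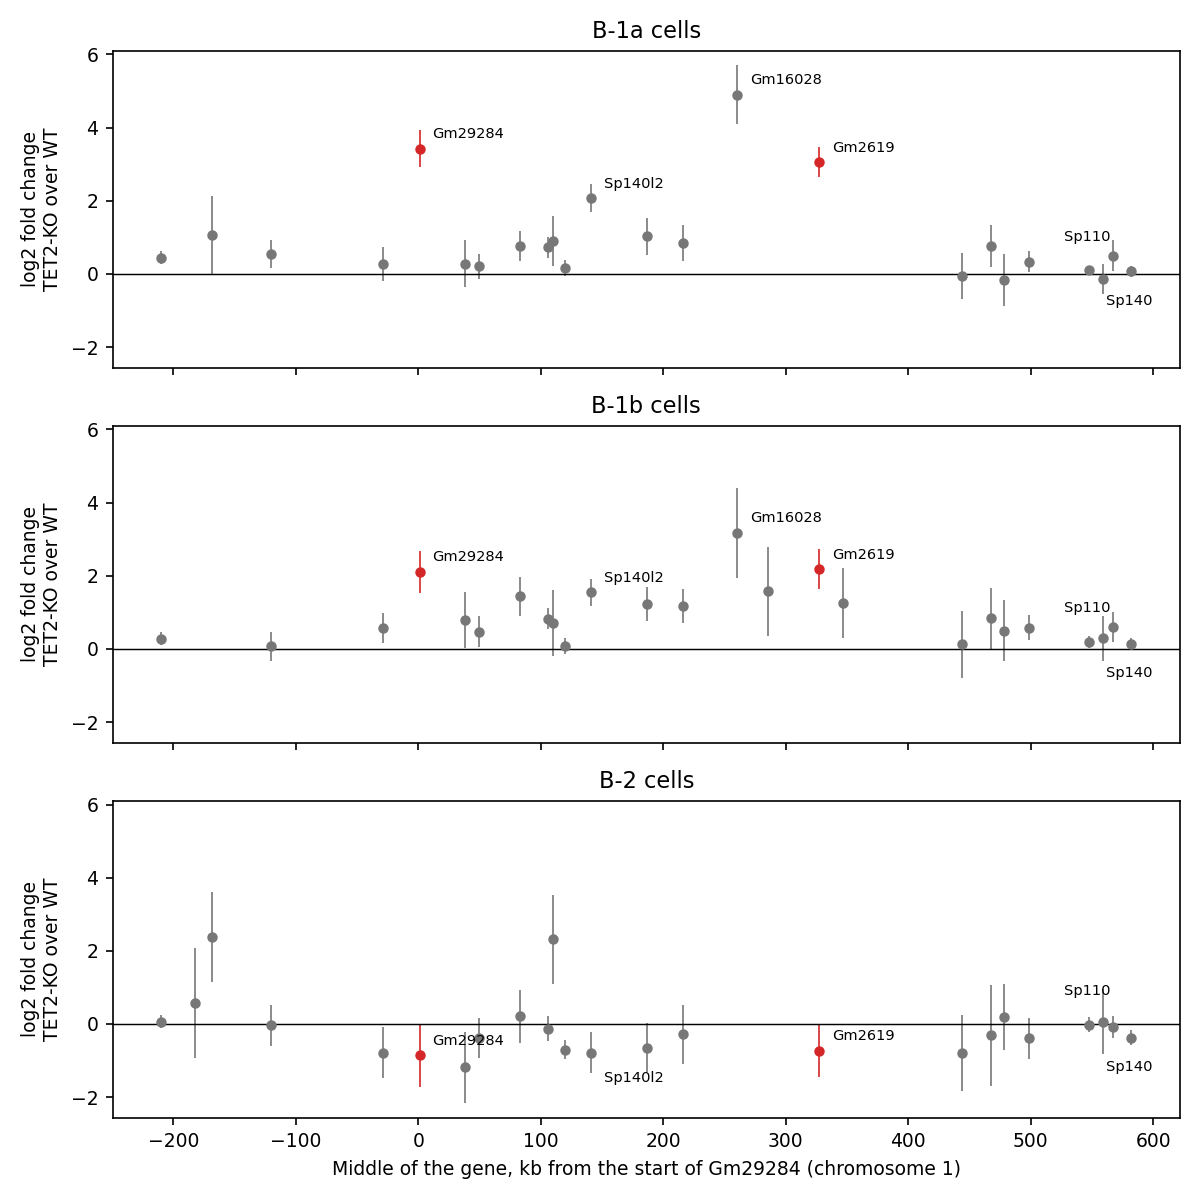
Log2 fold change (TET2-KO over WT, bars ± SE) of every tested gene against its distance in kb from the start of Gm29284, in B-1a, then B-1b, then B-2 cells, with Gm29284 and Gm2619 in red. In B-1a and B-1b cells the 4 highest points are the red genes or lie between them, and in B-2 cells both red points lie below 0.

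Most near copies of the chromosome 1 pair had smaller fitted log2 fold changes in the B-1 subsets, though the differences between genes were not tested. Sp100, at 412 ± 90 CPM in WT and 356 ± 52 CPM in TET2-KO B-1a cells (SD, n = 4 each), had a log2 fold change of -0.17 (SE 0.17), which was 0.10 (SE 0.18) without WT 1 and WT 2. Sp110 had 0.10 in B-1a and 0.20 in B-1b cells, and Gm53056 had 0.20 (SE 0.34) and 0.47 (SE 0.42), with edgeR's adjusted p at 0.85 and 0.839. Gm7592 had 0.33 (SE 0.29) and 0.58 (SE 0.34). Gm7609, identical to Gm2619 over exon 3, had 0.84 (SE 0.49) and 1.18 (SE 0.46), with separate groups in B-1b cells, and Sp140l2, which holds exon 1 of Gm29284, had the 2.07 and 1.54 given above. Sp100 had far more counts than Gm2619, and how reads were divided among the copies was not tested.

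**Figure D4:**
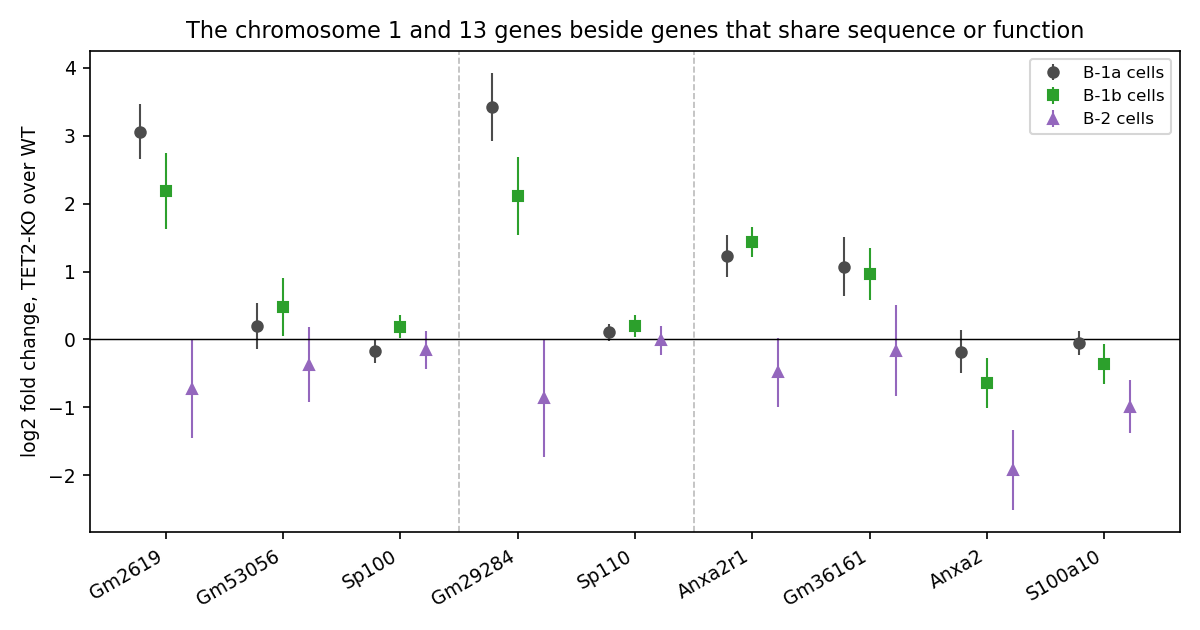
Log2 fold change (TET2-KO over WT, bars ± SE) in B-1a, then B-1b, then B-2 cells for Gm2619, Gm29284 and Anxa2r1, each followed after it by genes that share its sequence or its partner protein. Sp100 and Sp110 lie near 0 in the B-1 subsets and Gm53056 at 0.20 and 0.47, whereas Gm36161 lies near Anxa2r1. Among copies not drawn, Gm7592, Gm7609 and Sp140l2 had 0.33, 0.84 and 2.07 in B-1a cells. In B-1b cells they had 0.58, 1.18 and 1.54.

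The near copy of Anxa2r1 had log2 fold changes of similar size to its own in the B-1 subsets. Gm36161, 13.4 kb away, had log2 fold changes of 1.07 (SE 0.43) in B-1a, 0.96 (SE 0.38) in B-1b and -0.16 (SE 0.67) in B-2 cells. Its adjusted p in edgeR were 0.622, 0.838 and 0.907. The groups overlapped, since B-1a TET2-KO 4 held 15.1 CPM and B-1b TET2-KO 3 held 9.11 CPM, values within the WT range or under it. In the same libraries Anxa2r1 was 28.9 and 17.3 CPM, above all WT values of its subset. Anxa2r2, its other near copy, had 9 counts in all libraries together. The genes for annexin A2 and its partner gave no difference past the test. Anxa2 (annexin A2) was at 592 ± 259 CPM in WT and 512 ± 130 CPM in TET2-KO B-1a cells. Its log2 fold change there was -0.18 (SE 0.32), or -0.56 (SE 0.27) without WT 1 and WT 2. In B-1b cells it was -0.64 (SE 0.37), or -0.46 (SE 0.27) without WT 1 and WT 2. S100a10, which codes for the partner subunit of annexin A2, had -0.05 (SE 0.17) in B-1a cells, or -0.08 (SE 0.23) without WT 1 and WT 2. In B-1b cells S100a10 had -0.36 (SE 0.30), or 0.03 (SE 0.25) without them. With all libraries, 0 of the 2 tested genes of this list were above 0 in any subset, and none passed the test. Without WT 1 and WT 2, 1 of 2 was above 0 in B-1b cells. With all libraries, both had an unadjusted p under 0.05 in edgeR in B-2 cells only. Those B-2 values of -1.92 (SE 0.59) for Anxa2 and -0.99 (SE 0.39) for S100a10 rested on the library labelled WT 1, and were -0.27 (SE 0.48) and -0.12 (SE 0.40) without it, neither with an unadjusted p under 0.05.

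Around 1110038B12Rik, the flanking genes were not past the test in any subset. Neu1, the lysosomal sialidase, had a log2 fold change of -0.09 (SE 0.12) in B-1a cells, and Lsm2, an RNA-binding protein of the splicing machinery, -0.22 (SE 0.23), or 0.03 (SE 0.27) without WT 1 and WT 2, while Ehmt2, which codes for a histone methyltransferase, had 0.53 (SE 0.28) with overlapping groups. Its other relatives are the snoRNA host genes, of which 21 of 22 listed were found and 19, 19 and 20 were tested in B-1a, then B-1b, then B-2 cells. Of these, 19, 17 and 19 had a log2 fold change above 0, beside the 52.4%, 49.5% and 58.3% of all genes. The medians were 0.89, 0.56 and 0.47, and none passed an adjusted p of 0.05 in edgeR. An unadjusted p under 0.05 in edgeR was found for 8, 5 and 2 host genes. Over all genes tested it was found for 1093 of 13923, 787 of 14368 and 1754 of 19786. Without WT 1 and WT 2, 19 of 19, 17 of 19 and 13 of 20 were above 0, the medians were 0.50, 0.42 and 0.25, against 0.02, 0.007 and 0.20 over all genes in the same fits, and 0, 0 and 1 had an unadjusted p under 0.05. Snhg6 had 0.86 (SE 0.27) in B-1a and 0.61 (SE 0.26) in B-1b cells, without overlap of groups in either. Without WT 1 and WT 2 these were 0.56 (SE 0.30) and 0.57 (SE 0.34), again without overlap. Snhg16 had 1.28 (SE 0.39) in B-1a, 0.67 (SE 0.50) in B-1b and 0.41 (SE 0.50) in B-2 cells. Without WT 1 and WT 2 its values were 0.88 (SE 0.42), 0.27 (SE 0.48) and -0.12 (SE 0.51). Gas5, a growth-arrest host transcript, had 0.56 (SE 0.28) in B-1a, 0.08 (SE 0.20) in B-1b and -0.02 (SE 0.20) in B-2 cells. Without WT 1 and WT 2 its values were 0.20 (SE 0.28), 0.17 (SE 0.23) and 0.05 (SE 0.32). In total 4, 6 and 7 tested host genes had every TET2-KO library above every WT library, beside 2.18%, 3.74% and 12.7% of all genes.

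**Figure D5:**
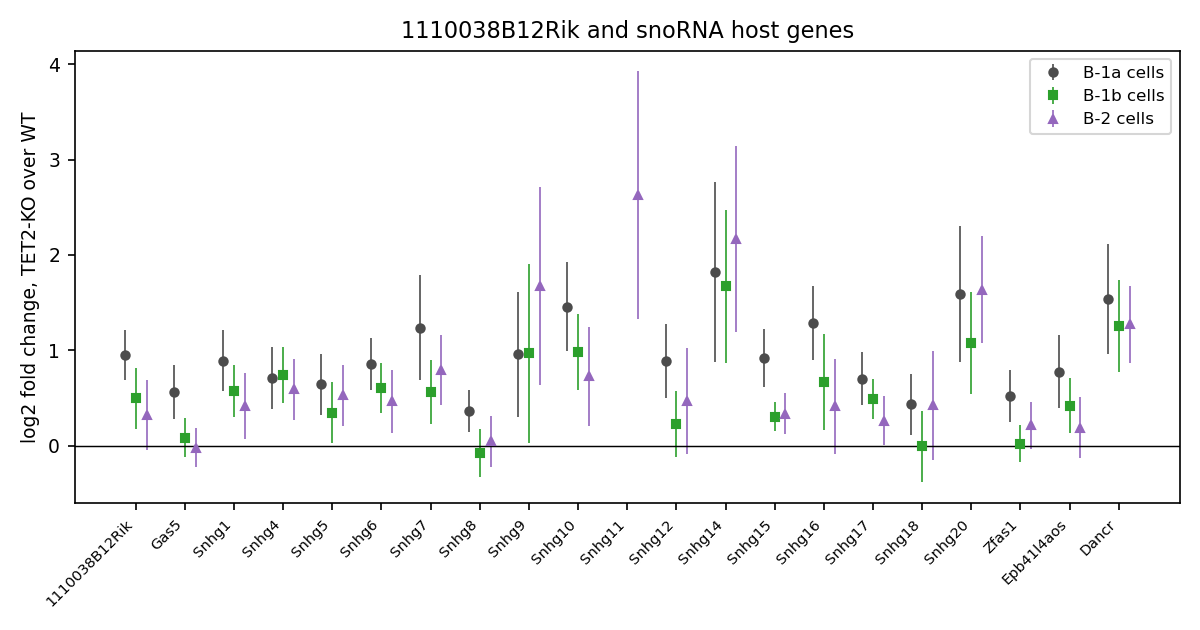
Log2 fold change (TET2-KO over WT, bars ± SE) of 1110038B12Rik and the tested snoRNA host genes in B-1a, then B-1b, then B-2 cells. Most points lie above 0 in all 3 subsets, with the B-1a points of 1110038B12Rik at 0.95 and Snhg16 at 1.28.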

How the data were processed

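B-2, B-1a and B-1b cells of the peritoneal cavity were sorted and sequenced at low input (the labels and the methods differ on the library preparation), and 1 deposited table of raw counts per gene was used for each of 21 libraries. The authors trimmed reads with fastp, aligned them with STAR to GRCm39 and counted fragments with featureCounts 1.6.1 on GENCODE vM32, without strand. Reads from a gene and an antisense partner therefore cannot be told apart, and fragments over more than 1 gene were not counted. Symbols were matched for 56310 of 56953 genes. Counts were tested per subset with edgeR 4.0.16 (TMM, filterByExpr, quasi-likelihood, Benjamini-Hochberg, threshold 0.05) in R 4.3.3; DESeq2 1.42.0 was an alternative. Fits were tested on simulated data with genes changed by known folds. At a log2 fold change of 1, they recovered 24, 24 and 3 of 100 genes in B-1a, then B-1b, then B-2 cells. At a log2 fold change of 3, they recovered 82, 66 and 45 of 100. CPM for likeness used a prior count of 2. Single-copy stretches were counted over the GRCm39 genome on both strands, and copies of exons were aligned within 600 kb of each gene (at least 90% identity). The genes named were the 4 chosen genes, overlapping genes and the 3 nearest on each side within 250 kb, the 5 most alike, the snoRNA host and annexin A2 lists, and Tet2; near copies and the chromosome 1 stretch were added after values were seen. The genes and lists were chosen with earlier results of these data known. In B-1a cells 7 of 13923 genes were called (1 higher in TET2-KO, 0.00718%), and 0 of 14368 in B-1b (787 at an unadjusted p under 0.05, 52 by DESeq2).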

Additional observations from a re-analysis of the deposited data

How the results depend on the processing

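The log2 fold changes of the 4 genes in B-1a and B-1b cells kept their sign in every alternative, and 106 of 107 values stayed within 1 SD between libraries; the exception was 1110038B12Rik in B-1a cells without WT 1 and WT 2 (0.63). In B-2 cells, leaving out each library in turn gave -1.61 to 2.03 for Gm2619, -1.68 to 1.32 for Gm29284 and -0.97 to 0.09 for Anxa2r1. Their signs turned without the library labelled WT 1, which is also the fit without WT 1 and WT 2 (2.03, 1.32 and 0.093). Without WT 4, Gm2619 had -1.61 and an adjusted p of 0.0355 in edgeR; the only WT library in that fit was WT 1, whose subset markers went against its label, and it was assumed to vary like the TET2-KO libraries. Calls over all genes moved more: in B-1a cells 191 by DESeq2, 318 with no filter on low counts, 0 without WT 1 and WT 2, and 0 to 6 leaving out 1 library, against 7. The 0 came without TET2-KO 2 or TET2-KO 3. In B-1b cells there were 52 by DESeq2, 131 with no filter and 0 to 0 leaving out 1 library. In B-2 cells there were 162 by DESeq2, 167 with no filter and 0 to 576 leaving out 1 library, the 576 without WT 4. With the replicate number as a block, 48 genes were called in B-1a, 0 in B-1b and 0 in B-2 cells, and Gm2619 in B-2 cells turned to 0.27. Deviations of same-numbered WT and TET2-KO libraries within a subset had correlations from -0.12 to 0.41. That check did not compare libraries of different subsets, so it cannot decide whether a number stands for a shared mouse or sorting day. The cause of these shifts was not tested. The 7 to 85 counts of Gm29284 per WT library limit its precision.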

Other observations

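Next to 1110038B12Rik, the inducible heat shock gene Hspa1b, 3.91 kb away, ran against it: the mean was 81.8 ± 78.4 CPM in WT (SD, n = 4) and 12.8 ± 4.1 CPM in TET2-KO (SD, n = 3) B-1b cells, without overlap, a log2 fold change of -2.67 (SE 0.66) with an adjusted p of 0.838 in edgeR. In B-2 cells its groups were also separate, at -3.59 (SE 0.99) with an adjusted p of 0.531. In B-1a cells they overlapped at -2.74 (SE 1.26), but were separate without WT 1 and WT 2 at -3.73 (SE 0.52), with an adjusted p of 0.130 in edgeR. The B-1b and B-2 values were then -3.34 (SE 0.50) and -4.30 (SE 1.06). Hspa1a, 16.7 kb away, was separate in B-1b and B-2 cells as well, and in B-1a cells without WT 1 and WT 2.

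Near Anxa2r1, Tcstv2a, 210.9 kb away, was at 18.4 ± 15.7 CPM in WT and 74.8 ± 33.0 CPM in TET2-KO B-1a cells (SD, n = 4 each), without overlap, with a log2 fold change of 2.04 (SE 0.67) and an adjusted p of 0.533 in edgeR. It was 1.25 (SE 0.38) without WT 1 and WT 2. In B-1b cells the groups of Tcstv2a overlapped, at 16.8 ± 21.9 CPM in WT (SD, n = 4) and 25.8 ± 5.6 CPM in TET2-KO (SD, n = 3). Its log2 fold change there was 0.67 (SE 0.83), or 1.75 (SE 0.46) with separate groups without WT 1 and WT 2. In B-2 cells its log2 fold change was -2.54 (SE 1.00), which turned to 2.48 (SE 0.84) without the library labelled WT 1, the only WT library then left being WT 4. Tcstv2b was near the floor, with 239 counts in all libraries together. Its groups were separate in B-1a cells, at 0.336 ± 0.261 CPM in WT and 1.83 ± 0.74 CPM in TET2-KO (SD, n = 4 each). They overlapped in B-1b cells, at 0.324 ± 0.312 CPM (SD, n = 4) and 0.559 ± 0.544 CPM (SD, n = 3). Tcstv4 had a log2 fold change of 0.10 (SE 0.36) in B-1a cells, or 0.47 (SE 0.26) without WT 1 and WT 2.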
